A study of Mus musculus with 2 samples.

Results

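The 7 genes described here, H2-Aa, H2-Ab1, H2-Eb1, Cd74, Ciita, H2-DMa and H2-DMb1, encode the core of major histocompatibility complex (MHC) class II presentation. They were picked by symbol from the 34244 genes of the deposited gene list, and all 7 were found there. Their raw UMIs (unique molecular identifiers, each standing for 1 captured transcript) were followed across cell types of the liver in single-cell RNA libraries from 2 mice of the C57/BL6 strain. The Control mouse was gavaged with peanut oil, although its treatment label reads "Untreated", and the PCB126 mouse was gavaged with PCB126 at 20 µg/kg/day. This polychlorinated biphenyl acts like dioxin, through the aryl hydrocarbon receptor. Exposure lasted 5 weeks, both mice were fasted for 12 hours before collection, and both carry the age label postnatal day 21. The wording of the protocol leaves unclear whether the gavage was repeated. Hepatocytes were removed from both livers by centrifugation and straining, and red cells were lysed. There was 1 library per group, so no test between groups was made, mouse and treatment cannot be told apart, and every interval below covers counting error only.

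MHC class II molecules display peptides from endocytosed proteins to CD4+ T cells. They are made constantly by B cells, dendritic cells and many macrophages, and other cells, among them bile duct epithelium (cholangiocytes) and endothelium, can make them when exposed to interferon-gamma. H2-Aa and H2-Ab1 encode the alpha and beta chains of the I-A molecule, and H2-Eb1 encodes the beta chain of I-E, which C57BL/6 strains transcribe although their defective alpha chain gene leaves them without I-E at the surface. Cd74 encodes the invariant chain, which blocks the peptide groove until the molecule reaches the endosome, and H2-DMa and H2-DMb1 encode the DM dimer that then exchanges the last invariant chain fragment for peptide. Ciita encodes the transactivator that switches on the whole set without itself binding DNA. It is recruited by proteins that sit on paired promoter elements, the X box bound by the RFX complex and the Y box bound by NF-Y.

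The members other than Ciita and Cd74 lie together on chromosome 17 of the GRCm38 build. They are H2-DMa (ENSMUSG00000037649, 34119541 to 34139101, plus strand), H2-DMb1 (ENSMUSG00000079547, 34153072 to 34160230, plus), H2-Ab1 (ENSMUSG00000073421, 34257689 to 34269419, plus), H2-Aa (ENSMUSG00000036594, 34282744 to 34287823, minus) and H2-Eb1 (ENSMUSG00000060586, 34305867 to 34316674, plus), within 197 kb. Ciita (ENSMUSG00000022504) lies on chromosome 16 (10480059 to 10528418, plus strand). All 7 are annotated as protein coding in GENCODE M21. H2-DMb2, a near-identical neighbour of H2-DMb1, is on the same strand of chromosome 17 (34143307 to 34151555), so reads of the pair may be divided imperfectly by the counting.

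Class II promoters share paired X and Y boxes, and the stretches below are shown so that those letters can be compared between members and with H2-DMb2, whose use differed by cell type. In each, read 5′ to 3′ on the strand of the gene from RefSeq (GRCm38.p6), capitals mark the X-box core GNAAC and the Y-box core TGATTGG.
H2-Aa: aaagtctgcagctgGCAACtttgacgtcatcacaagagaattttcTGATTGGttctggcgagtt
H2-Eb1: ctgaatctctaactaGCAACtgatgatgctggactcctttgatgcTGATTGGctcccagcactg
H2-DMb1: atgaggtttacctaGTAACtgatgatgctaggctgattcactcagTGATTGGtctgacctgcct
H2-DMb2: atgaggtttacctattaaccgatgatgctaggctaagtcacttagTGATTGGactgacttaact
The stretches are chr17:34287855-34287918 (H2-Aa, minus strand), chr17:34305761-34305824 (H2-Eb1, plus), chr17:34153083-34153146 (H2-DMb1, plus) and chr17:34145112-34145175 (H2-DMb2, plus). The H2-Aa and H2-Eb1 stretches lie upstream of the gene in GENCODE M21 as well, whereas those of H2-DMb1 and H2-DMb2 lie inside the GENCODE gene, which starts farther upstream than the RefSeq entry. The Y-box core began 50 bases before the RefSeq start in H2-Aa, 61 in H2-Eb1 and 63 in H2-DMb1, and the gap between the cores was 26, 25 and 26 bases. H2-DMb2 had the Y-box core 92 bases before its start, with no GNAAC at that spacing. The pair, GNAAC then TGATTGG after 18 to 32 bases on either strand, was chosen after the members' windows had been read. It occurred in 127 of 32851 windows of 300 bases (0.387%), against 7.82% for TGATTGG alone and 84.8% for GNAAC alone. Of the 4 members with a window in the RefSeq table, 3 held the pair, and both windows of H2-DMa held neither the pair nor TGATTGG. The pair was also present in H2-Oa, H2-Ob and H2-Eb2, which encode the DO dimer and a second I-E beta chain.

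After filtering, 1858 Control cells (13763541 UMIs, median 5252.5 per cell) and 1138 PCB126 cells (9888509 UMIs, median 6567) remained. The median mitochondrial share was 7.58% and 12.2%. Each cell was placed in a class by how many of that class's marker genes it expressed, with no MHC class II gene among the markers. The B, dendritic, cholangiocyte, sinusoidal endothelial and vascular endothelial gates held 21, 47, 65, 263 and 28 Control cells and 55, 128, 82, 582 and 41 PCB126 cells. Neutrophils, which made up 807 and 98 cells and express little MHC class II, gave the level that free RNA can leave in a droplet. No barcode was shared between the cells of the libraries.

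The 7 genes took 43151 UMIs, or 0.314% of the total, in Control cells and 120112 UMIs, or 1.21%, in PCB126 cells. Dendritic-gated cells supplied 62.5% of the Control sum and 73.4% of the PCB126 sum, and B-gated cells 6% and 4.96%. The dendritic gate was 2.53% of Control cells and 11.2% of PCB126 cells, and the library totals include that difference in makeup. All further values are per cell or in CPM (UMIs per 1000000 UMIs of the gated cells). The assay tags the 3′ end, so a transcript counts once whatever its length and levels of different genes are compared as UMIs.

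Among the dendritic, B, plasma, cholangiocyte, endothelial and neutrophil gates, dendritic cells stood highest and B cells next in both libraries. The macrophage gate, left out of that order, stood above B cells, at 17595 CPM (5 Control cells) and 30580 CPM (6 PCB126 cells). Monocytes, also left out, were at 453 CPM (386 Control cells) and 37451 CPM (6 PCB126 cells). Summed over the 7 genes, the Control level was 36952 CPM in dendritic, 12003 in B, 1927 in plasma, 157 in neutrophil, 129 in cholangiocyte, 18.5 in sinusoidal endothelial and 7.29 in vascular endothelial cells. The PCB126 level was 45713 CPM in dendritic, 18284 in B, 2835 in plasma (4 cells), 1237 in cholangiocyte, 242 in sinusoidal endothelial, 158 in neutrophil and 98.7 in vascular endothelial cells. The neutrophil level rested on few cells in the Control library, where 2 of the 807 neutrophils held 311 of the 520 UMIs and the other 805 stood at 63.7 CPM, below the Control cholangiocytes. With all cells the PCB126 over Control ratio in neutrophils was 1.00 (95% interval 0.766 to 1.30), but at least 1 UMI was present in 17.2% of Control and 35.7% of PCB126 neutrophils, so the background was not the same in the libraries. Of the PCB126 levels above that of neutrophils, the sinusoidal endothelial one rested on 4 of 582 cells, and the other 578 stood at 52.4 CPM. T and NK cells, which also make little class II, stood at 73.9 CPM (15 cells, 10 UMIs) in Control and 346 CPM (65 cells, 204 UMIs) in PCB126, a ratio of 4.68 (2.49 to 9.91), with 168 of the 204 UMIs in 2 cells.

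**Figure D1:**
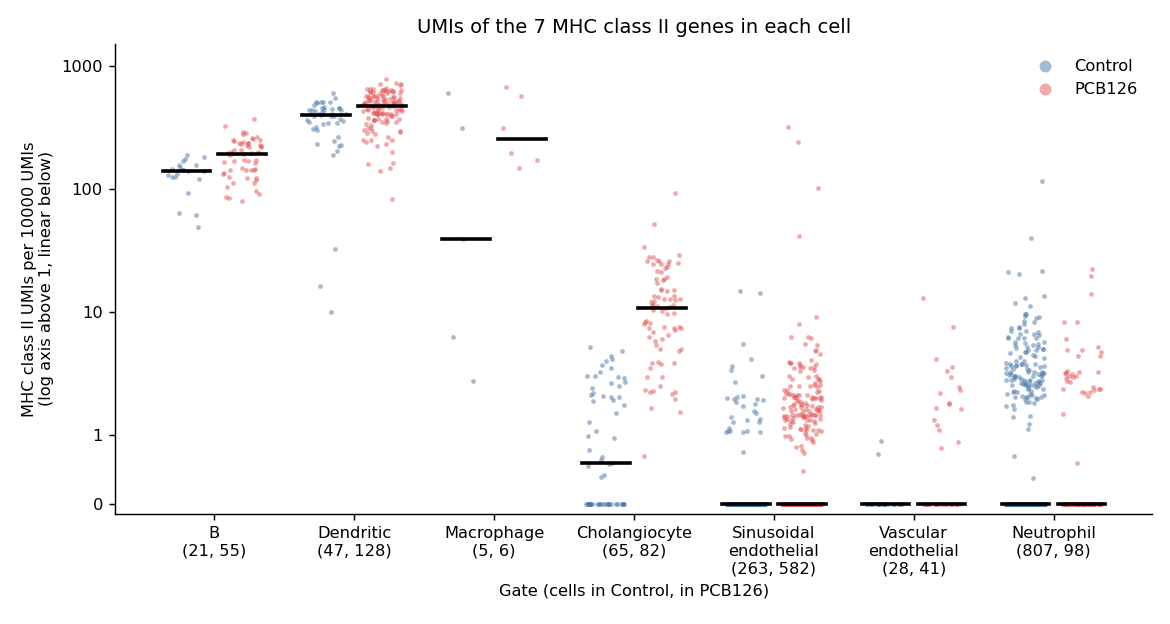
UMIs of the 7 MHC class II genes per 10000 UMIs in each cell (vertical axis, logarithmic above 1 and linear below), by gate and library. Each point is 1 cell and each black line a median. The PCB126 cholangiocytes all lie above 0, whereas 4 PCB126 sinusoidal endothelial cells stand far above the other 578.

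Cholangiocytes showed the broadest difference between the libraries. The 10 cholangiocyte markers that chose the gate summed to 4335 CPM in Control and 4889 CPM in PCB126 cells. Control cholangiocytes carried 154 UMIs of the 7 genes and PCB126 cholangiocytes 2015, a ratio of 9.57 (95% interval 8.12 to 11.4). The genes with at least 20 UMIs in the gate numbered 6 of 7, and all 6 were at least 1.5 times higher in PCB126, beside 9.58% of the 9765 genes tested in the gate. H2-Aa, H2-Eb1, H2-DMa and H2-DMb1 reached 20 UMIs only with their PCB126 reads, a filter that favours genes higher in PCB126, so nothing is read from the count. None of the 6 was 1.5 times lower, beside 6.71% of all genes.

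Among the chains of the class II molecules, H2-Aa had the largest ratio. It was at 5.03 CPM (6 UMIs) in Control and 153 CPM (250 UMIs) in PCB126 cholangiocytes, a ratio of 30.5 (13.8 to 83.9). H2-Ab1 was at 29.4 CPM (35 UMIs) and 226 CPM (369 UMIs), a ratio of 7.71 (5.45 to 11.2). H2-Eb1 was at 15.9 CPM (19 UMIs) and 133 CPM (217 UMIs), a ratio of 8.36 (5.22 to 14.2). The H2-Aa interval began above the end of the H2-Ab1 interval, so the alpha chain gene differed from its partner by more than counting error before any subtraction of background. In Control neutrophils H2-Ab1 stood at 27.5 CPM and H2-Aa at 23.6 CPM. With the neutrophil level subtracted, the log2 ratio of H2-Ab1 went from 2.93 to 6.84. H2-Aa, below that level in Control cholangiocytes, then had no value, so the order of the pair was not stable. Cd74 (ENSMUSG00000024610, chromosome 18, 60803848 to 60812652, plus strand) was the most abundant of the 7 in this gate, with 66.3 CPM (79 UMIs) in Control and 667 CPM (1087 UMIs) in PCB126 cells, a ratio of 10.1 (8.01 to 12.8).

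The DM genes that load peptide were lower in abundance. H2-DMa had 1 UMI over 65 Control cells and 31 UMIs over 82 PCB126 cells, and the ratio of 22.7 had an interval from 3.78 to 925. H2-DMb1 was at 11.7 CPM (14 UMIs) in Control and 35.6 CPM (58 UMIs) in PCB126 cells, a ratio of 3.03 (1.67 to 5.89). H2-DMb1 had the smallest ratio of the 6 and was already detected in 16.9% of unthinned Control cholangiocytes, while the 807 Control neutrophils held no UMI of it. Ciita, the transactivator of all the others, had 0 UMIs in Control and 3 in PCB126 cholangiocytes, which is at the limit of detection and allows no fold.

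**Figure D2:**
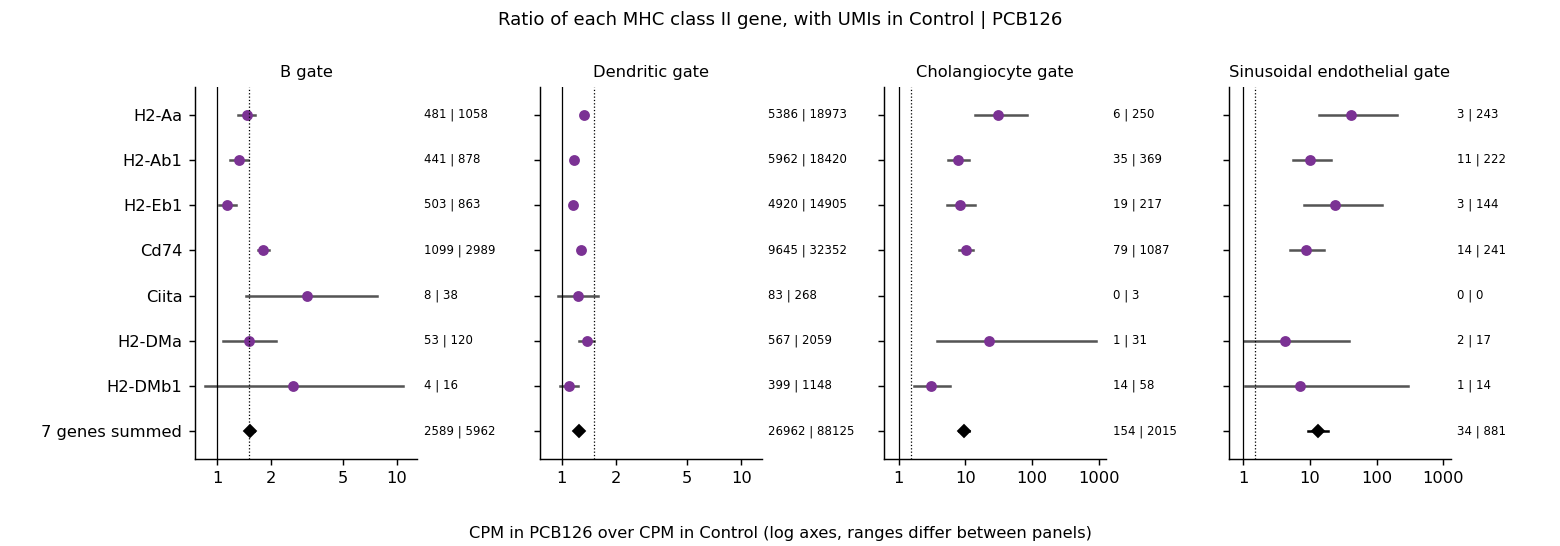
Ratio of CPM, PCB126 over Control, for each of the 7 genes and their sum (log axes with their own range in each panel), in 4 gates. Points are ratios, bars exact 95% intervals for counting error, the dotted line marks 1.5, and the numbers beside each row are UMIs in Control and PCB126. The cholangiocyte sum lies at 9.57 and the dendritic sum at 1.24, and genes with 0 Control UMIs have no point.

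The difference was spread over the cholangiocyte gate. Per cell, the 7 genes had a lowest value of 0, a median of 0.597 and a highest value of 5.19 UMIs per 10000 in Control cells. In PCB126 cells the lowest value was 0.702, the median 10.8 and the highest 92.9. Of the 82 PCB126 cells, 62 (75.6%) lay above the highest Control cell, and 82 lay above the Control median, while 35 of the 65 Control cells lay below the lowest PCB126 cell, so the groups overlapped in part. At least 1 UMI of the 7 genes was present in 37 of 65 Control cells and 82 of 82 PCB126 cells, and 10 or more UMIs in 3 and 63 cells. The 5 highest PCB126 cells held 23.4% of the UMIs of the gate. Without the 5 highest cells of each library the levels were 96.1 and 1055 CPM.

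Median depth was 12052 UMIs in Control and 15956 UMIs in PCB126 cholangiocytes, so each cell was also thinned to 1000 UMIs. Cd74 was then detected in 2 of 65 Control cells (3.08%, Clopper-Pearson 95% interval 0.375 to 10.7) and in 36 of 82 PCB126 cells (43.9%, 33.0 to 55.3), against 38.5% and 95.1% without thinning. Thinned shares come from a single random draw, and over all draws 6.03% and 45.3% of the cholangiocytes were expected to hold Cd74. The thinned share in neutrophils was 4.74% in Control and 11.2% in PCB126, so the Control cholangiocyte share was not told apart from background at that depth. Any of the 7 genes was detected in 7.69% (2.54 to 17) of Control and 62.2% (50.8 to 72.7) of PCB126 cholangiocytes, against 7.23% and 17.3% of neutrophils. Over all draws 11.3% and 62.2% of the cholangiocytes were expected. H2-Aa was found in 0 of 65 thinned Control cells, which allows up to 4.62% of cells with a UMI at that depth only, and in 9.76% of PCB126 cells, against 9.23% and 73.2% without thinning. Thinned shares of H2-Ab1 were 3.08% and 20.7%, and of H2-Eb1 1.54% and 12.2%. The intervals of Cd74, H2-Ab1 (12.6 to 31.1) and H2-Eb1 (6.01 to 21.3) in PCB126 cholangiocytes lay above those in PCB126 neutrophils (5.74 to 19.2, 0.636 to 8.69 and 0.0258 to 5.55), and that of H2-Aa (4.31 to 18.3) overlapped its neutrophil interval of 0.636 to 8.69. Neutrophils were shallower, with medians of 3585 and 3945 UMIs before thinning.

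**Figure D3:**
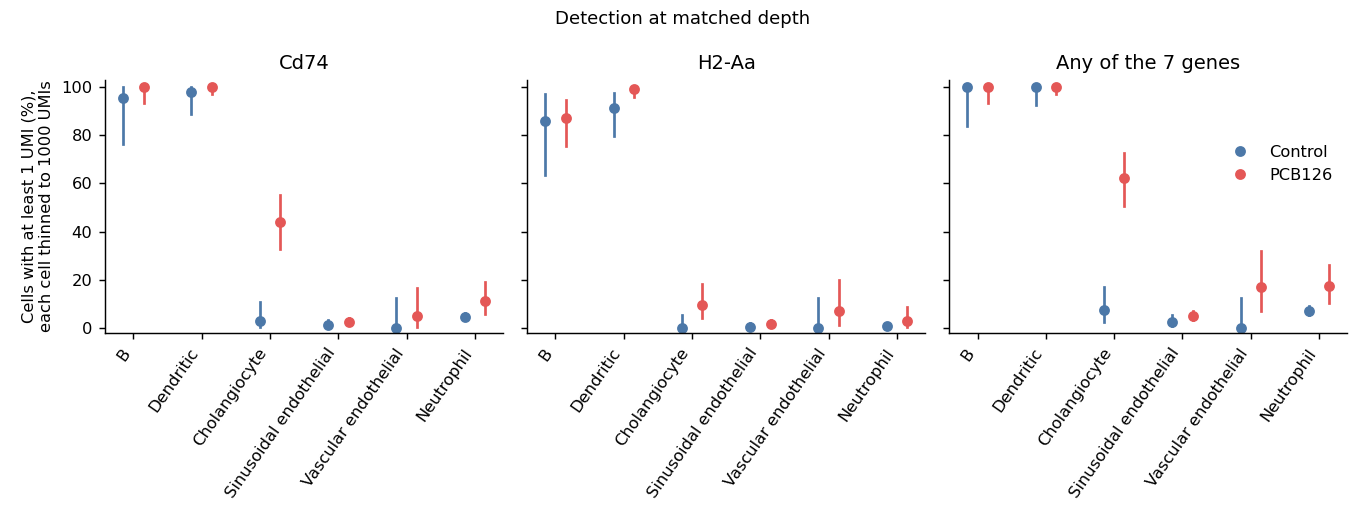
Share of cells with at least 1 UMI of Cd74, of H2-Aa or of any of the 7 genes after each cell was thinned to 1000 UMIs (vertical axis, percent), by gate. Points are Control and PCB126 shares with Clopper-Pearson 95% intervals. B and dendritic cells sit near 100% for Cd74 in both libraries, and cholangiocytes go from 3.08% to 43.9%.

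Markers of other cells were present in the cholangiocyte gate to different degrees. Ptprc, which encodes the pan-leukocyte antigen CD45, had 2 UMIs in Control and 1 in PCB126 cells, the myeloid gene Lyz2 had 6 and 2, and Tyrobp had 1 and 0. Of the 12 macrophage markers, 2 had any UMI in each library (2 and 3 UMIs in all). The complement gene C1qa was at 0 in both, while C1qb and Adgre1 were the ones with UMIs in PCB126 cells. Of the 10 type 2 dendritic markers, 0 were detected in Control and 1 in PCB126 cells, with 1 UMI. The type 1 dendritic list summed to 379 and 376 CPM. Naaa and Cadm1 had UMIs in both libraries, Clec9a and Batf3 in PCB126 cells only, and the other 6 markers, Xcr1 among them, were at 0 in both. The mature dendritic list was at 102 and 89.0 CPM, with Ccr7 and Fscn1 at 0 in both, and the plasmacytoid list at 112 and 136 CPM, with Siglech at 0 in both. B markers summed to 4.19 and 5.52 CPM. Cst3, which is high in dendritic cells but widely expressed, was at 431 and 445 CPM. Neutrophil markers were lower in PCB126, 1125 against 1875 CPM, and hepatocyte markers were at 2623 and 2545 CPM. The part of this other RNA in the class II result was not tested.

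The proportions among the genes differed from those of professional presenting cells. In PCB126 cholangiocytes there were 4.35 Cd74 UMIs for each H2-Aa UMI (95% interval 3.79 to 5.01), against 2.83 (2.63 to 3.03) in B cells and 1.71 (1.67 to 1.74) in dendritic cells of the same library. In Control cholangiocytes the ratio was 13.2 (5.79 to 37.0). Its interval did not overlap that of the PCB126 cells, so Cd74 stood higher relative to H2-Aa in the Control cholangiocytes, over only 6 H2-Aa UMIs. PCB126 neutrophils stood at 3.45 (1.73 to 7.49), a range that includes the PCB126 cholangiocyte value. Control neutrophils stood at 3.54 (2.74 to 4.61), below the Control cholangiocyte interval. Of their 520 UMIs of the 7 genes, 311 came from 2 cells, so that value need not be the proportion in free RNA. The Control cholangiocyte ratio is therefore not told apart from background by it. H2-Eb1 UMIs per H2-Ab1 UMI were 0.543 (0.293 to 0.975) in Control and 0.588 (0.495 to 0.697) in PCB126 cholangiocytes, against 0.809 (0.792 to 0.827) in PCB126 dendritic cells.

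The wider pathway was counted over 40 genes for peptide processing, promoter factors, co-stimulation and interferon-gamma signalling. In cholangiocytes 22 of the 40 had at least 20 UMIs, 3 were at least 1.5 times higher in PCB126 and 0 were lower (9.58% and 6.71% of all genes), and the median log2 ratio was 0.10, against 0.08 over all 9765 genes. Creb1, which binds the X2 part of class II promoters, had a ratio of 1.73 (1.25 to 2.42), and the kinase gene Jak1 a ratio of 1.39 (1.10 to 1.77). The protease gene Ctsb was at 0.856 (0.735 to 0.997). Rfx5, of the RFX complex, was also past 1.5 (11 and 26 UMIs, ratio 1.73), but its interval of 0.826 to 3.88 included 1. It reached 20 UMIs only with its PCB126 reads, so nothing is read from the count of higher genes.

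Several partners of the pathway were missing from cholangiocytes of both libraries. H2-DMb2, H2-Oa, H2-Ob, H2-Eb2, the co-stimulatory genes Cd80, Cd86 and Cd40, and Cd83 had 0 UMIs in the 65 and the 82 cells. Ctss, the protease that trims the invariant chain in bone marrow-derived presenting cells, had 1 and 1 UMI, whereas Ctsl, a related protease, had 300.2 and 311 CPM, a ratio of 1.03 (0.902 to 1.19). Class I genes were higher too: H2-K1 went from 1407 to 2857 CPM (ratio 2.03, 1.92 to 2.15), H2-D1 from 1068 to 2296 CPM (2.15, 2.02 to 2.29), and B2m from 997 to 1620 CPM (1.62, 1.52 to 1.74). These ratios were smaller than the 9.57 of the class II sum.

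Sinusoidal endothelial cells, the fenestrated lining of the liver's capillaries, showed a ratio of similar size from a different distribution. The 11 endothelial markers that chose the cells summed to 12938 and 13271 CPM. The 7 genes summed to 18.5 CPM (34 UMIs) in 263 Control cells and 242 CPM (881 UMIs) in 582 PCB126 cells, a ratio of 13 (9.26 to 19.0). Of the 881 UMIs, 692 came from 4 cells, which held 516, 122, 37 and 17. The other 578 cells held 189 UMIs, or 52.4 CPM. Without the 5 highest cells of each library the levels were 14.9 and 50.5 CPM, a ratio of 3.39.

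The median cell had no UMI of the 7 genes in either library. At least 1 UMI was present in 32 of 263 Control cells (12.2%) and 143 of 582 PCB126 cells (24.6%). After thinning, any of the 7 genes was found in 2.68% (1.08 to 5.45) of Control and 5.01% (3.38 to 7.11) of PCB126 cells. Both shares were below those of neutrophils (7.23% and 17.3%), so neither is read as expression and no difference is read from them. Ciita had 0 UMIs in both libraries.

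Some of the 4 high cells also carried RNA of macrophages. The cell with 516 UMIs had 5 of the 12 macrophage markers with 110 UMIs, beside 10 of the 11 endothelial markers with 80 UMIs, and the cell with 122 UMIs had 2 macrophage markers. The cells with 37 and 17 UMIs had none, beside 6 and 11 endothelial markers. Macrophage markers summed to 2642 CPM in the 4 cells and 7.77 CPM in the other 578. Over the whole gate macrophage markers were 15.8 CPM in Control and 39.2 CPM in PCB126. Type 1 dendritic markers summed to 299 CPM (13 UMIs) in the 4 cells and 47.7 CPM in the other 578. Type 2 dendritic markers summed to 115 CPM (5 UMIs) and 2.77 CPM, and B markers to 0 and 2.22 CPM. The part of this other RNA in the class II result was not tested. Of the 7 genes, 4 reached 20 UMIs in this gate, and those 4 were at least 1.5 times higher, beside 9.07% of 9917 genes tested. All 4 had under 20 UMIs in Control and entered through their PCB126 reads, so nothing is read from that count. H2-Aa was at 3 and 243 UMIs (ratio 40.8, 13.8 to 199), H2-Eb1 at 3 and 144 (24.2, 8.11 to 119), H2-Ab1 at 11 and 222 (10.2, 5.57 to 20.7) and Cd74 at 14 and 241 (8.67, 5.07 to 16.1). H2-DMa had 2 and 17 UMIs and H2-DMb1 1 and 14.

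Of the wider pathway, 29 of 40 genes reached 20 UMIs in sinusoidal endothelial cells, with 5 higher and 4 lower (9.07% and 12.3% of all genes) and a median log2 ratio of 0.06. Ctss, abundant in macrophages, went from 7 to 100 UMIs (ratio 7.19, 3.36 to 18.3). The cytokine signal inhibitor Socs1 went from 4 to 40 UMIs (5.03, 1.82 to 19.4), the lysosomal protease Ctsd had a ratio of 1.72 (1.54 to 1.92) and Ctsh one of 0.470 (0.321 to 0.688). Ctss and Socs1 reached 20 UMIs only with their PCB126 reads, so nothing is read from the count of higher genes.

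Vascular endothelial cells held very few class II reads. The sum was 2 UMIs in 28 Control cells and 32 UMIs in 41 PCB126 cells, or 7.29 and 98.7 CPM, a ratio of 13.5 (3.45 to 117). The PCB126 level was below the 158 CPM of neutrophils. At least 1 UMI was present in 2 and 18 cells, and after thinning in 0 of 28 (up to 10.7% of cells with a UMI at that depth) and 7 of 41 (17.1%, 7.15 to 32.1), the latter beside 17.3% of neutrophils. Neither level is read as expression. H2-Aa and Cd74 had 10 UMIs each in PCB126 cells, against 0 and 1, and Ciita had 0 in both. All 12 macrophage markers were at 0 in both libraries. None of the 7 genes reached 20 UMIs, while 17 of the 40 pathway genes did, with 4 higher and 3 lower (10.9% and 18.3% of all genes). The named ones were all lower: the protease genes Lgmn (ratio 0.478, 0.284 to 0.790) and Ctsb (0.735, 0.584 to 0.923), and the kinase genes Jak2 (0.388, 0.172 to 0.823) and Jak1 (0.663, 0.509 to 0.863).

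Dendritic cells, the highest of the 5 cell types in both libraries, differed little. The sum was 36952 CPM (26962 UMIs, 47 cells) in Control and 45713 CPM (88125 UMIs, 128 cells) in PCB126, a ratio of 1.24 (1.22 to 1.25). None of the 7 was 1.5 times higher or lower, beside 17.2% of 7798 genes higher and 11.5% lower, and their median log2 ratio was 0.28, against 0.05 over all genes tested. Per cell the lowest, median and highest values were 10.1, 395 and 595 UMIs per 10000 in Control and 83.2, 466 and 773 in PCB126. Of 128 PCB126 cells, 24 (18.8%) lay above the highest Control cell, so the distributions overlapped over most of their range.

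Within the gate H2-DMa had the largest ratio at 1.37 (1.25 to 1.51), followed by H2-Aa at 1.33 (1.29 to 1.37), Cd74 at 1.27 (1.24 to 1.30), Ciita at 1.22 (0.952 to 1.58), H2-Ab1 at 1.17 (1.14 to 1.20), H2-Eb1 at 1.15 (1.11 to 1.18) and H2-DMb1 at 1.09 (0.971 to 1.22). Each neighbouring pair in that order had overlapping intervals, while H2-Aa lay above its partner H2-Ab1 with intervals that did not overlap. H2-Aa was at 7382 and 9842 CPM, H2-Ab1 at 8171 and 9555 CPM, and H2-Eb1 at 6743 and 7732 CPM. Cd74 was at 13219 and 16782 CPM, Ciita at 114 and 139 CPM, H2-DMa at 777 and 1068 CPM, and H2-DMb1 at 547 and 596 CPM. At 1000 UMIs per cell Cd74 was found in 97.9% and 100% of cells and Ciita in 12.8% and 10.9%.

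The makeup of the dendritic gate differed between the libraries. Type 1 cells, which carry Xcr1 and Clec9a, were 39 of 47 in Control and 77 of 128 in PCB126, type 2 cells were 7 and 36, and mature cells marked by Ccr7 and Fscn1 were 1 and 15. In type 1 cells alone the class II sum was 35772 and 42893 CPM, a ratio of 1.20 (1.18 to 1.22), with none of the 7 past 1.5 beside 16.1% of 6922 genes. H2-DMa remained the largest at 1.42 (1.28 to 1.57). Type 2 cells had the highest level of any class, 47752 CPM over 7 Control cells and 54209 CPM over 36 PCB126 cells, with per-cell medians of 502 and 548 UMIs per 10000. The 15 mature PCB126 cells stood at 44622 CPM, and the only mature Control cell had 8 class II UMIs among 2447.

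Dendritic subsets of the PCB126 library carried both beta chains in different proportions. H2-Eb1 UMIs per H2-Ab1 UMI were 0.747 (0.727 to 0.768) in type 1, 0.855 (0.821 to 0.890) in type 2 and 1.25 (1.16 to 1.35) in mature PCB126 cells. In Control they were 0.815 (0.783 to 0.849) in type 1 and 0.889 (0.801 to 0.986) in type 2 cells, with intervals that overlapped. The mature cells had 0.600 H2-Ab1 UMIs per H2-Aa UMI (0.558 to 0.645), against 0.971 over all PCB126 dendritic cells. Their Ciita level was 69.9 CPM (13 UMIs), against 154 CPM (199 UMIs) in type 1 and 124 CPM (56 UMIs) in type 2 cells of that library.

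Of the 40 pathway genes, 35 reached 20 UMIs in dendritic cells, with 9 higher and 2 lower (17.2% and 11.5% of all genes) and a median log2 ratio of 0.18, against 0.05 over all genes. Irf1, an interferon-induced factor that drives Ciita, was at 31.5 and 114 CPM (ratio 3.60, 2.34 to 5.81). Cd274, which encodes PD-L1, was at 15.1 and 48.8 CPM (3.23, 1.73 to 6.70), and Irf4 had 0 and 33 UMIs. Both reached 20 UMIs only with their PCB126 reads, so nothing is read from the count of higher genes. In type 1 cells alone Irf1 stood at 2.71 (1.69 to 4.54), so that difference was also present within 1 subset. Irf4 had under 20 UMIs in type 1 cells, and the part of the gate's makeup in its difference was not tested.

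B cells were intermediate. The sum was 12003 CPM (2589 UMIs, 21 cells) in Control and 18284 CPM (5962 UMIs, 55 cells) in PCB126, a ratio of 1.52 (1.45 to 1.6). Of the 7 genes, 3 were at least 1.5 times higher, beside 20.7% of 3078 genes, and 0 were lower, beside 24.6%. Those 3 were Cd74, Ciita and H2-DMb1, and the median log2 ratio of the 7 was 0.58, against -0.03 over all genes tested. Ciita (8 and 38 UMIs) and H2-DMb1 (4 and 16 UMIs) reached 20 UMIs only with their PCB126 reads, so nothing is read from that count or that median. Per cell the lowest, median and highest values were 48.9, 139 and 190 UMIs per 10000 in Control and 79.8, 191 and 367 in PCB126, and 28 of 55 PCB126 cells lay above the highest Control cell. Without the 5 highest cells of each library the ratio was 1.36, and with no required lead over the next class it was 2.00. The B markers that chose the gate also summed higher in PCB126, 9860 against 6120 CPM, and their part in the result was not tested.

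Cd74 was at 5095 CPM in Control and 9167 CPM in PCB126 B cells, a ratio of 1.80 (1.68 to 1.93), above that of H2-Aa at 1.46 (1.31 to 1.62), H2-Ab1 at 1.32 (1.17 to 1.48) and H2-Eb1 at 1.13 (1.02 to 1.27). Its interval did not overlap those of the 3 chains. H2-DMa was at 246 and 368 CPM (1.498, 1.08 to 2.11). Ciita was at 37.1 CPM (8 UMIs) and 117 CPM (38 UMIs), a ratio of 3.14 (1.44 to 7.80), and H2-DMb1 at 4 and 16 UMIs (2.65, 0.854 to 10.9). After thinning to 1000 UMIs H2-Aa was detected in 85.7% of Control and 87.3% of PCB126 cells, H2-Ab1 in 100% and 89.1%, H2-Eb1 in 85.7% and 85.5%, and Cd74 in 95.2% and 100%. Ciita was found in 0 of 21 and 14.5%, H2-DMa in 28.6% and 32.7%, and H2-DMb1 in 4.76% and 9.09%. The log2 ratios of H2-Ab1 and H2-DMa in the thinned counts were -0.03 and -0.12, so their direction was not stable. Thinning was a single random draw that also weighs every cell alike, so the part of depth in this cannot be told apart.

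In B cells 24 of 40 pathway genes reached 20 UMIs, with 8 higher and 3 lower (20.7% and 24.6% of all genes) and a median log2 ratio of 0.12, against -0.03 over all genes. Some of the higher genes, H2-Oa (13 and 56 UMIs) among them, reached 20 UMIs only with their PCB126 reads. Nothing is therefore read from that count or that median. H2-Oa, whose product with H2-Ob restrains DM, was at 60.3 and 172 CPM (ratio 2.85, 1.54 to 5.68), and H2-DMb2 at 213 and 475 CPM (2.23, 1.59 to 3.17). March1, a ubiquitin ligase that turns over surface class II, was at 116 and 233 CPM (2.01, 1.27 to 3.30). Irf4, a factor of plasma cell development, was lower, at 97.4 and 30.7 CPM (0.315, 0.132 to 0.699).

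The DM beta gene in use differed more between cell types than between libraries. H2-DMb1 made up 8.0% of the H2-DMb1 plus H2-DMb2 UMIs in Control B cells (95% interval 2.22 to 19.2, 50 UMIs) and 9.36% in PCB126 B cells (5.44 to 14.7, 171 UMIs). In type 1 dendritic cells it was 90.8% (87.6 to 93.5) and 84.6% (82.3 to 86.8), and in type 2 cells 61.5% (47.0 to 74.7) and 62.8% (57.8 to 67.7). In cholangiocytes all 14 Control and all 58 PCB126 UMIs were H2-DMb1. The B intervals were far below the others in both libraries, and the type 1 and type 2 intervals did not overlap either. Between the libraries the type 1 intervals also did not overlap, so that share differed by more than counting error. Mature PCB126 dendritic cells stood at 47.7% (32.5 to 63.3, 44 UMIs). Because the genes are near-identical, these shares hold for the reads as counted.

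**Figure D4:**
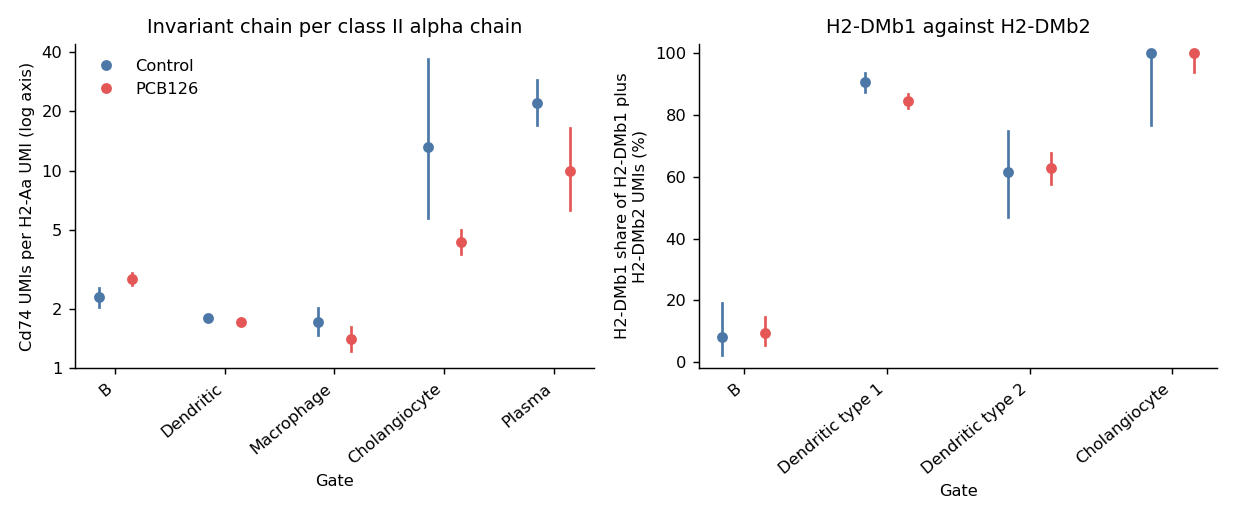
Left, Cd74 UMIs per H2-Aa UMI (log axis), and right, the H2-DMb1 share of H2-DMb1 plus H2-DMb2 UMIs (percent), by gate and library, with exact 95% intervals for counting error. Cholangiocytes carry 4.35 Cd74 UMIs per H2-Aa UMI in PCB126 against 1.71 in dendritic cells, and B cells hold 8.0% and 9.36% H2-DMb1.

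The macrophage gate held 5 Control and 6 PCB126 cells, fewer than the 10 needed for a comparison. Class II UMIs per 10000 were 2.74, 6.22, 39.0, 314 and 596 in Control and 147, 173, 196, 310, 567 and 674 in PCB126. The Control cells spanned nearly the whole range seen in the PCB126 cells and went far below it. In the lowest Control cells H2-Eb1 was at 0, and Ciita was found in 1 of the 5 Control and 2 of the 6 PCB126 cells. A further 22 PCB126 cells and 1 Control cell had macrophage as 1 of their 2 leading classes and stayed outside the gates. In 12 of the 22 the other class was monocyte and in 9 it was dendritic, and their class II level had a median of 392 UMIs per 10000 (range 186 to 728). With cells of up to 50% mitochondrial UMIs the gate held 16 and 22 cells, at 16489 and 31121 CPM.

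Cells outside the 5 types gave 3 further values. Control plasma cells (44 cells) held Cd74 at 1531 CPM with 22.0 Cd74 UMIs per H2-Aa UMI (17.1 to 28.8) and 0 UMIs of Ciita. H2-Ab1 was at 221 CPM, H2-Eb1 at 87.1 CPM and H2-Aa at 69.5 CPM, so the class II chains were detected but stood below the invariant chain. Control monocytes (386 cells) stood at 453 CPM, with a median cell at 0 and a highest cell at 274 UMIs per 10000, and the 6 PCB126 monocytes ranged from 181 to 538. The 4 Control granule progenitors had 13 UMIs of H2-DMa and 7 of H2-DMb1 with 0 of Cd74.

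Across 16 class and library units with at least 20 cells, the mean log2 level of the 7 genes was set beside each of 10938 other genes with at least 100 UMIs, as a description only, since units of 1 library share depth and free RNA. The highest Pearson coefficients belonged to Ap1s3 (0.957), BC035044 (0.95), H2-Oa (0.941), Ly86 (0.928), Kmo (0.928), Kctd14 (0.928), Fgd2 (0.928), Btla (0.921), H2-Ob (0.908) and Scimp (0.905). Among the members themselves the coefficient with that mean ran from 0.901 for H2-DMb1 to 0.996 for H2-Eb1. Each member is part of that mean, which raises its coefficient, so these values are not comparable with those of the other genes. Of the 10, only H2-Oa and H2-Ob were on the list of pathway genes.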

How the data were processed

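Each deposited matrix lists unnormalised UMI counts by gene and cell barcode, made with Cell Ranger 6.0.0 per the file headers. Version 6.1.1 of that tool, and Seurat 4.0.1, stand in the submitters' processing notes. Other deposited files (genes, barcodes) carry only names. The genome build was not given in the sources used here; GENCODE M21 holds 34049 of the 34244 identifiers, and its build (GRCm38) was used for positions. Cells had at least 500 UMIs, 250 genes and at most 20% mitochondrial UMIs, which kept 1886 of 8550 Control and 1149 of 4307 PCB126 barcodes; 412 and 1698 failed on the mitochondrial share alone. The highest Scrublet scores were removed at 0.8% per 1000 barcodes (28 and 11; its own threshold called 10 and 4). A cell belonged to the class with the highest fraction of its markers detected, with at least 3 detected and 1.5 times the fraction of the next class; 39 and 11 cells had too few markers and 95 and 43 had markers of more than 1 class. A gate was compared with at least 10 cells per library.

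The totals and medians per cell set the precision. UMIs were summed per gate; ratios have exact conditional binomial intervals, shares Clopper-Pearson intervals, and a share of 0 the limit of 3 counts. Log2 ratios used 0.5 added counts. Genes with at least 20 UMIs in a gate, over both libraries, were counted at 1.5-fold. A gene could thus enter such a count through the library where it was higher. Cells were thinned to 1000 UMIs in a single random draw. The text names all 7 members in every gate, up to 4 pathway genes per gate whose interval bound lies farthest from 1, and the 10 genes of highest likeness (levels on the log2(CPM + 10) scale); genes at 0 in cholangiocytes, Rfx5, Ctsl and the class I genes were added after their values were seen. Some genes under this rule are not reported here. Members, markers and lists were chosen with earlier results of these data known. Scripts were tested on simulated data. Computations ran in Python 3.11.15 with pandas 2.3.3, numpy 2.4.6, scanpy 1.11.5, leidenalg 0.10.2, scipy 1.17.1 and, for figures, matplotlib 3.10.9. Alternatives covered the mitochondrial limit, doublets, gate rules, Leiden clusters, scaling, thinning and the highest cells.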

Additional observations from a re-analysis of the deposited data

How the results depend on the processing

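The class II sum stayed higher in PCB126 in the B, dendritic, cholangiocyte, sinusoidal endothelial and vascular endothelial gates under every alternative that gave a value. In B cells (1.52) it was 1.66 with at most 10% mitochondrial UMIs, 2.00 with no lead over the next class, 1.35 with Leiden clusters, 1.63 with mitochondrial and ribosomal RNA genes left out of the total, 1.30 thinned, 1.42 with every cell weighed alike and 1.36 without the 5 highest cells of each library. In dendritic cells (1.24) it was 1.20 with at most 10% mitochondrial UMIs, 1.21 with at least 5 markers, 1.29 without the 5 highest cells, 1.22 as the median over the members, 1.20 less the median of all genes and 1.20 in type 1 cells alone. In cholangiocytes (9.57) it was 12.7 thinned, and the other 11 alternatives moved it less than its interval. In sinusoidal endothelial cells (13) it was 63.8 with at most 10% and 8.21 with at most 50% mitochondrial UMIs, 4.36 with Leiden clusters, 6.57 thinned, 5.24 with every cell weighed alike and 3.39 without the 5 highest cells. The vascular endothelial ratio ran from 7.66 to 22.6. The causes were not tested. Of 256 alternative values of members' log2 ratios, 208 moved less than their interval and 2 reversed, both in thinned B cells: H2-Ab1 to -0.028 and H2-DMa to -0.12. Leaving out the highest cells and subtracting the median were chosen after seeing the data. Subtracting the neutrophil level gave no value for the sum in cholangiocytes and endothelial cells, whose Control sum lay under it. For H2-Ab1 in cholangiocytes, whose Control level lay little above that of neutrophils, it took the log2 ratio from 2.93 to 6.84. Leiden clusters, thinning, the highest-cell and the median alternatives gave none in vascular endothelial cells, nor did macrophages except with up to 50% mitochondrial UMIs. No paired analysis was possible because each group had 1 library. Low counts limit Ciita outside dendritic cells, H2-DMb1 in B cells and every gene in endothelial cells.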
